A study of Rattus norvegicus with 18 samples.

Results

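The genes described here are the splicing factor and hnRNP genes of the rat array, chosen by their symbols. A gene was a member when its probe set carried a single gene symbol that began with Srsf and a number, Hnrnp, Snrp, Sf3a or Sf3b and a number, Prpf and a number, or U2af. This gave 61 of the 14218 genes that the array measures with a single symbol, on 100 probe sets. They comprised 11 SR protein genes, 17 hnRNP genes, 10 genes of Sm and other snRNP proteins, 9 genes of the SF3a and SF3b complexes, 11 PRPF genes and 3 U2AF genes. No measured value entered the choice, except that a gene with several probe sets was read from the one with the highest mean over the 18 arrays.

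Introns are removed by the spliceosome, which is built from small nuclear ribonucleoprotein particles (snRNPs). A ring of Sm proteins surrounds the RNA of the U1, U2, U4 and U5 particles, U2AF marks the 3′ splice site, the SF3a and SF3b complexes of the U2 particle hold the branch site, and most of the PRPF proteins work in or around the later U4/U6.U5 particle. SR proteins bind exons and mostly favour their inclusion, hnRNPs coat nascent transcripts and often oppose it, and several of both kinds control their own mRNA through exons that lead to its decay. DNA damage is known to change both the splicing of many mRNAs and the activity of splicing factors.

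NRK-52E, the cell used throughout, is an established rat line labelled as renal proximal tubular, of strain Osborne-Mendel. Confluent cells were given aristolochic acid (AA), a nitrophenanthrene of Aristolochia plants that forms DNA adducts and injures the kidney tubule, at 1.65 µM in 0.1% DMSO. That dose was the IC10 at 72 h, and control cells were given DMSO only. The 6 groups, of 3 arrays each, were DMSO and AA at 6 h, at 24 h and at 72 h, all from this 1 line. Replicates are described as biological, with no word on shared plates or days, and the p-values rest on the spread among these arrays alone. In such bulk RNA, fewer cells of a type and less RNA per cell cannot be told apart.

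All levels and differences below are log2 values, taken from or computed on the expression levels that the authors deposited. Array medians lay between 4.03 and 4.20, and replicates correlated at 0.996 or more over all probe sets. The label was only partly borne out by marker genes, since of 17 proximal tubule markers on the array 1 or 2 had a group mean of 4 or more in every group, and Lrp2 and Cubn, the endocytic receptors of that segment, lay near the floor at means of 2.31 and 1.95. Of 15 epithelial markers 4 reached that level, with Tjp1 and Krt8 at means of 13.6 and 13.57 but Cdh1, Epcam and Krt18 at 2.57, 2.42 and 2.33. Of 14 fibroblast and mesenchymal markers 9 did, among them Vim (14.92), Col3a1 (14.29), Postn (12.15) and Fn1 (12.06). Pdgfra (1.87), Dcn (1.88), Thy1 (2.21) and Lum (2.22) of that list lay near the floor. In AA the p53 target Cdkn1a was higher by 0.68, 1.12 and 3.71 at 6, 24 and 72 h, each past the test. A result was called when the adjusted p from limma was under 0.05 over all 9016 tested genes.

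Of the 61 members, 57 had a level of 4 or more on at least 3 arrays and were tested. The other 4 were Srsf3, Srsf7 and the pseudogene Srsf7-ps4 among the SR genes and Snrpn, which encodes a tissue-restricted Sm protein, with means of 3.44, 1.76, 3.55 and 1.96. These lie near the background floor, and the levels of these genes are not judged from them. A further 8 probe sets listed a matching symbol together with another gene and were left out, and Hnrnpk, the best known poly(C)-binding hnRNP, has no value here for that reason. Mean levels of the tested members ran from 5.73 for Prpf40b to 14.10 for Snrpe. Brightness also depends on the probes, so levels are compared within a gene only. RefSeq lists pseudogene copies for 25 of the 61 members, 51 of them for Hnrnpa1 alone, and a probe set may share signal with such copies.

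The members varied little between replicates, with a median SD of 0.09 against 0.11 over all tested genes. Their probe sets were also brighter (median of 11.26 against 9.3), and spread can vary with brightness, so the lower SD is not read as a trait of the members. The range of the 6 group means had a median of 0.59 over the 57 members and 0.79 over all tested genes. AA at 6 h was the group with the highest mean for 28 of the 57, and the same was true of 19.7% of all tested genes. AA at 72 h was the lowest group for 24 of the 57, against 20.7% of all tested genes. The range was widest for Snrpa (2.54), followed by Hnrnpa1 (2.39), Prpf40b (2.25) and Sf3a1 (1.55).

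**Figure D1:**
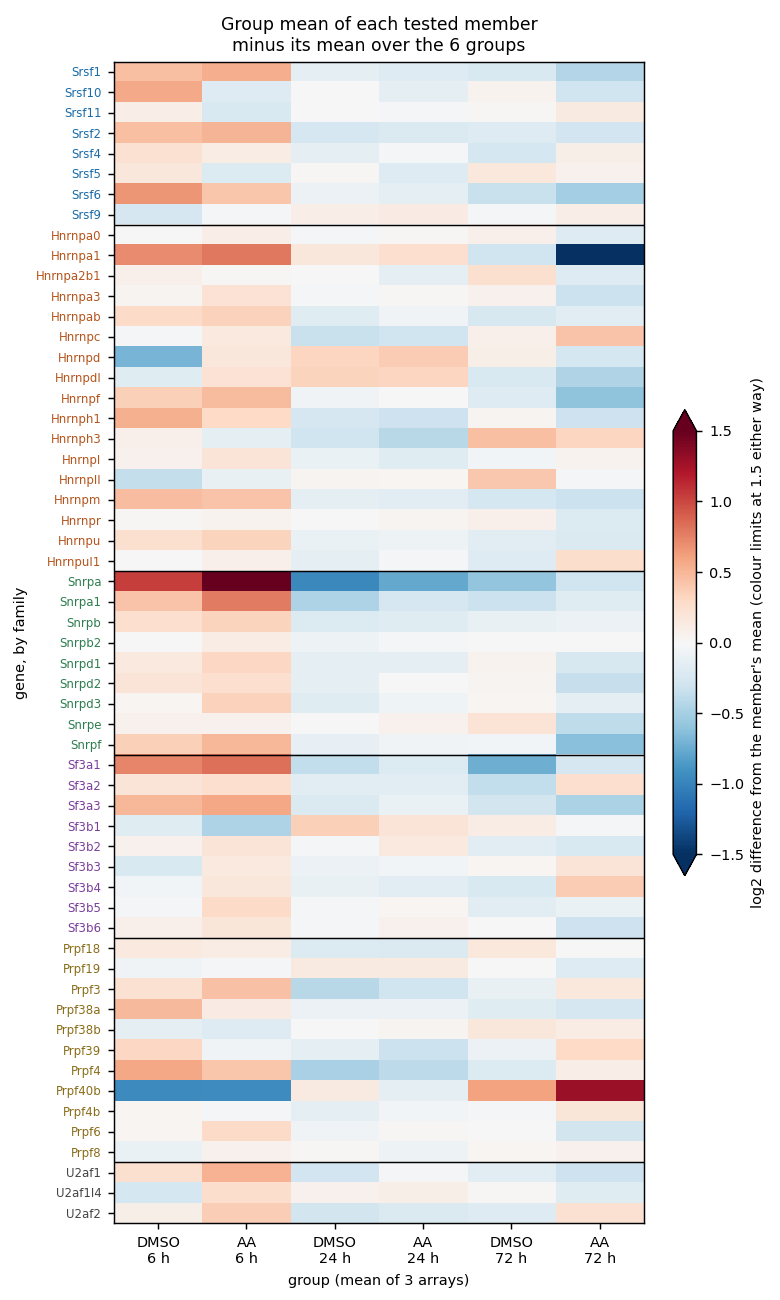
Each row is 1 tested member and each column 1 group; colour gives the group mean (3 arrays) minus the member's mean over the 6 groups, on the log2 scale, red above and blue below, with families divided by lines. Snrpa is red in both 6 h groups and blue afterwards, Hnrnpa1 is darkest blue in AA at 72 h, and Prpf40b runs from blue at 6 h to red at 72 h.

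At 6 h, AA raised 10 of the 57 members (12.1% of all tested genes were higher) and lowered 7 (12.4% of all tested genes were lower), so the share called, in either direction, was 29.8% against 24.5% overall. The SR protein genes stood on the lower side, with 4 of 8 lower and 1 higher. Sm and snRNP genes and U2AF genes had 2 higher of 9 and 2 higher of 3, and none lower. The median difference was 0.08 over the members and 0.01 over all tested genes. AA and DMSO arrays were fully apart in 23 members, as they were in 36.4% of all tested genes. In 15 of them AA was the higher group (18.9% of all tested genes) and in 8 the lower (17.6%).

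Srsf10 fell most among the SR genes at 6 h. Its protein is a splicing repressor when dephosphorylated, as in mitosis and heat shock. Its levels were 10.79, 10.75 and 10.67 in DMSO and 10.09, 10.16 and 9.67 in AA. Every AA array lay below every DMSO array, and the difference was −0.76 ± 0.12 (SE; adjusted p = 0.00041), or 0.589-fold on the linear scale. Srsf5 had levels of 12.56, 12.67 and 12.50 in DMSO and 12.27, 12.27 and 12.09 in AA. That drop of −0.37 ± 0.07 (adjusted p = 0.00151) again left no overlap between the groups. Srsf11 went from 12.36, 12.47 and 12.44 to 12.18, 12.17 and 11.91, a drop of −0.34 ± 0.08 (adjusted p = 0.00584). Srsf6 fell by 0.24, and in both of these SR genes the groups stayed apart. Srsf9 was the SR gene that rose, by 0.22 ± 0.07. The classical exon-inclusion factors Srsf1 and Srsf2 had differences of 0.10 ± 0.07 and 0.06 ± 0.07 and did not pass the test (adjusted p above 0.05 in each).

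Among the hnRNP genes, Hnrnpd changed most at 6 h. It encodes AUF1, which binds AU-rich elements and is known for controlling mRNA decay. Its levels were 10.76, 10.44 and 10.49 in DMSO and 11.34, 11.31 and 11.65 in AA, so that all AA arrays were above all DMSO arrays. The difference was 0.87 ± 0.12 (adjusted p = 0.000208), a 1.83-fold rise. Its close relative Hnrnpdl rose too, by 0.39 ± 0.12 (adjusted p = 0.0278), from 11.02, 10.89 and 10.68 to 11.05, 11.18 and 11.53. Those groups barely separated. Hnrnph1, which binds runs of G, fell from 13.91, 13.95 and 13.94 to 13.80, 13.79 and 13.47 (−0.25 ± 0.07, adjusted p = 0.0183), with AA replicate 3 well below the other two. The other 14 hnRNP genes were not called at 6 h, among them Hnrnpa1 (difference 0.08 ± 0.12), Hnrnpa2b1 (−0.06 ± 0.07) and Hnrnpu (0.09 ± 0.07).

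Of the 12 U2AF and SF3 genes, 4 were higher and 1 lower at 6 h. U2af1l4, related to the small U2AF subunit, had levels of 7.64, 7.81 and 7.82 in DMSO and 8.11, 8.16 and 8.61 in AA. Its difference was 0.53 ± 0.15 (adjusted p = 0.0141). U2af1, the small subunit that reads the terminal AG of the intron, rose by 0.30 ± 0.08 (adjusted p = 0.0125), and its groups did not overlap. U2af2, the large subunit that binds the pyrimidine tract, had a difference of 0.28 ± 0.11 and missed the threshold at adjusted p = 0.0666. Of the SF3b genes, Sf3b3 rose from 10.93, 10.99 and 11.03 to 11.13, 11.45 and 11.54 (0.39 ± 0.09, adjusted p = 0.00521). Sf3b5, a small subunit, rose by 0.31 ± 0.08 and its groups were apart. Sf3b1, the subunit that clamps the branch site, went the other way, from 12.88, 12.85 and 12.61 to 12.47, 12.52 and 12.49. That fall of −0.28 ± 0.07 had adjusted p = 0.0064, with no overlap between arrays.

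Snrpa1, which encodes a U2 snRNP protein, had levels of 9.15, 9.61 and 9.35 in DMSO and 9.74, 9.69 and 9.73 in AA at 6 h. It rose by 0.35 ± 0.12 (adjusted p = 0.039), with no overlap, but that call was lost in 7 of 15 refits (0.24 with adjusted p = 0.173 without DMSO at 6 h replicate 1). The Sm ring gene Snrpd3 rose by 0.31 ± 0.07. Snrpb, the ring gene that also regulates its own splicing, had a difference of 0.08 ± 0.10 and was not called. Of 11 PRPF genes, Prpf6, which bridges the U5 and U4/U6 particles, rose by 0.25 ± 0.07. Prpf39, a U1-associated factor, fell from 11.10, 11.00 and 11.39 to 10.91, 10.75 and 10.78 (−0.35 ± 0.10, adjusted p = 0.0161). Prpf8, the core protein of the U5 particle and of the catalytic centre, had a difference of 0.16 ± 0.09, and the ubiquitin ligase gene Prpf19 one of 0.03 ± 0.11. Neither passed the test.

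The 6 h counts leaned on 1 array. AA at 6 h replicate 3 stood apart on the fourth principal component, at 26.48 against 6.63 and 8.92 for the other two. Without it, 4 members were higher (4.68% of all tested genes) and 4 lower (5.31%), while 9.99% of all tested genes were called. Hnrnpd (0.77), Srsf10 (−0.61), Srsf5 (−0.31), Sf3b1 (−0.28), Srsf11 (−0.25) and Sf3b3 (0.30) were among the calls that held. Snrpd3 was the remaining one, and Hnrnpll was called in addition. Hnrnpdl (0.26), Hnrnph1 (−0.14), Prpf39 (−0.34), Sf3b5 (0.24), Snrpa1 (0.34), U2af1 (0.24) and U2af1l4 (0.38) were no longer called, nor were Prpf6, Srsf6 and Srsf9. With only the 6 h arrays in the fit, 2 members were higher (Hnrnpd and Sf3b5) and 2 lower (Srsf10 and Srsf5). Of all tested genes 3.26% were then higher and 3.19% lower.

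At 24 h, limma called none of the 57 members higher or lower in AA, where 1.81% of all tested genes were higher and 0.277% lower (2.09% in all). At an unadjusted p under 0.05 there were 4 members, and the share of all tested genes at that limit is not given here. U2af1 was nearest, with levels of 11.23, 11.38 and 11.08 in DMSO and 11.50, 11.54 and 11.45 in AA. Its groups did not overlap, but the difference of 0.27 ± 0.08 had adjusted p = 0.11. Without DMSO at 24 h replicate 2 that difference was 0.34 with adjusted p = 0.0338. The other three were Srsf5 (−0.21 ± 0.07), Snrpd2 (0.15 ± 0.07) and Sf3b1 (−0.15 ± 0.07). Member differences ran from −0.27 to 0.27 with a median of 0.03, and the arrays of 6 members did not overlap, against 19.5% of all tested genes. AA was the higher group in 3 of these (9.04% of all tested genes) and the lower in 3 (10.4%). The test did make calls at this time elsewhere, for instance for Cdkn1a at 1.12 ± 0.09.

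At 72 h, AA lowered 18 of the 57 members (19.8% of all tested genes were lower) and raised 10 (27.4% were higher). Called in either direction were 49.1% of the members and 47.2% of all tested genes. With each array centred on the median of its tested genes, the members gave 24 lower and 9 higher, and all tested genes 24.8% lower and 22.3% higher. The lower calls lay mainly in 2 families, 9 of 17 hnRNP genes and 5 of 9 Sm and snRNP genes, of which 2 and 0 were higher. SF3 genes (3 higher, 1 lower of 9) and PRPF genes (3 higher, 1 lower of 11) had medians of 0.06 and 0.05, next to 0.05 over all tested genes. The median difference over the members was −0.09. In 34 members the groups did not overlap, and 59.6% of all tested genes shared that. AA was lower in 20 of these (25.2% of all tested genes) and higher in 14 (34.4%).

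Hnrnpa1 gave the largest member difference of any treatment comparison. It encodes an abundant shuttling hnRNP that represses exon inclusion. Its levels at 72 h were 12.53, 12.67 and 12.34 in DMSO and 11.52, 10.95 and 11.20 in AA. All 3 AA arrays were below every DMSO array of any time, and AA at 72 h was at 0.408 of the DMSO level on the linear scale (−1.29 ± 0.12, adjusted p = 5.46e-08). The sister genes Hnrnpa2b1, Hnrnpa3 and Hnrnpa0 fell as well, by differences of −0.43 ± 0.07, −0.39 ± 0.07 and −0.27 ± 0.07. For Hnrnpa2b1 the levels were 13.60, 13.46 and 13.59 in DMSO and 13.28, 13.02 and 13.07 in AA. The groups stood apart in all of these A-type genes. With the mean of all its probe sets, Hnrnpa2b1 had a difference of −0.17 and was not called (adjusted p = 0.177).

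Further hnRNP genes fell at 72 h by smaller amounts. Hnrnpll, known for CD45 splicing in lymphocytes, went from 11.02, 11.00 and 10.93 to 10.65, 10.50 and 10.54 (−0.42 ± 0.11, adjusted p = 0.0046). Hnrnpf went from 11.53, 11.54 and 11.48 to 11.12, 10.88 and 11.32 (−0.41 ± 0.09, adjusted p = 0.00109). It shares G-run binding with Hnrnph1, which fell by 0.35. Hnrnpr fell by 0.29. Hnrnpd fell by 0.36 (adjusted p = 0.0184), but its DMSO arrays (11.43, 11.42 and 11.20) and AA arrays (11.21, 10.77 and 11.00) overlapped. Hnrnpul1, of the hnRNP U-like proteins, rose by 0.46 ± 0.14, from 8.91, 8.70 and 8.73 to 9.30, 9.23 and 9.17. Hnrnpc, which packages nascent RNA by its U-tracts, rose by 0.35 ± 0.09. Hnrnpu, a nuclear scaffold protein, had a difference of −0.04 ± 0.07 and did not pass.

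The Sm ring genes moved together only in part. Snrpe had levels of 14.33, 14.29 and 14.29 in DMSO and 13.72, 13.67 and 13.76 in AA at 72 h. The difference of −0.59 ± 0.06 (adjusted p = 1.19e-07) was 0.666-fold. Snrpf, whose protein sits beside SmE in the ring, went from 12.23, 12.25 and 12.07 to 11.64, 11.44 and 11.70 (−0.59 ± 0.09, adjusted p = 3.43e-05). In both genes the AA arrays at 72 h were the lowest of all 18 arrays. Snrpd2 fell by 0.38, Snrpd1 by 0.29 and Snrpd3 by 0.17, the last with an adjusted p of 0.0472. Snrpb was the tested ring gene that was not called, with levels of 12.29, 12.32 and 12.21 in DMSO, 12.11, 12.50 and 12.25 in AA, and a difference of 0.01 ± 0.10. The U1 and U2 specific genes Snrpa, Snrpa1 and Snrpb2 had differences of 0.29, 0.15 and 0.02 and were not called either.

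**Figure D2:**
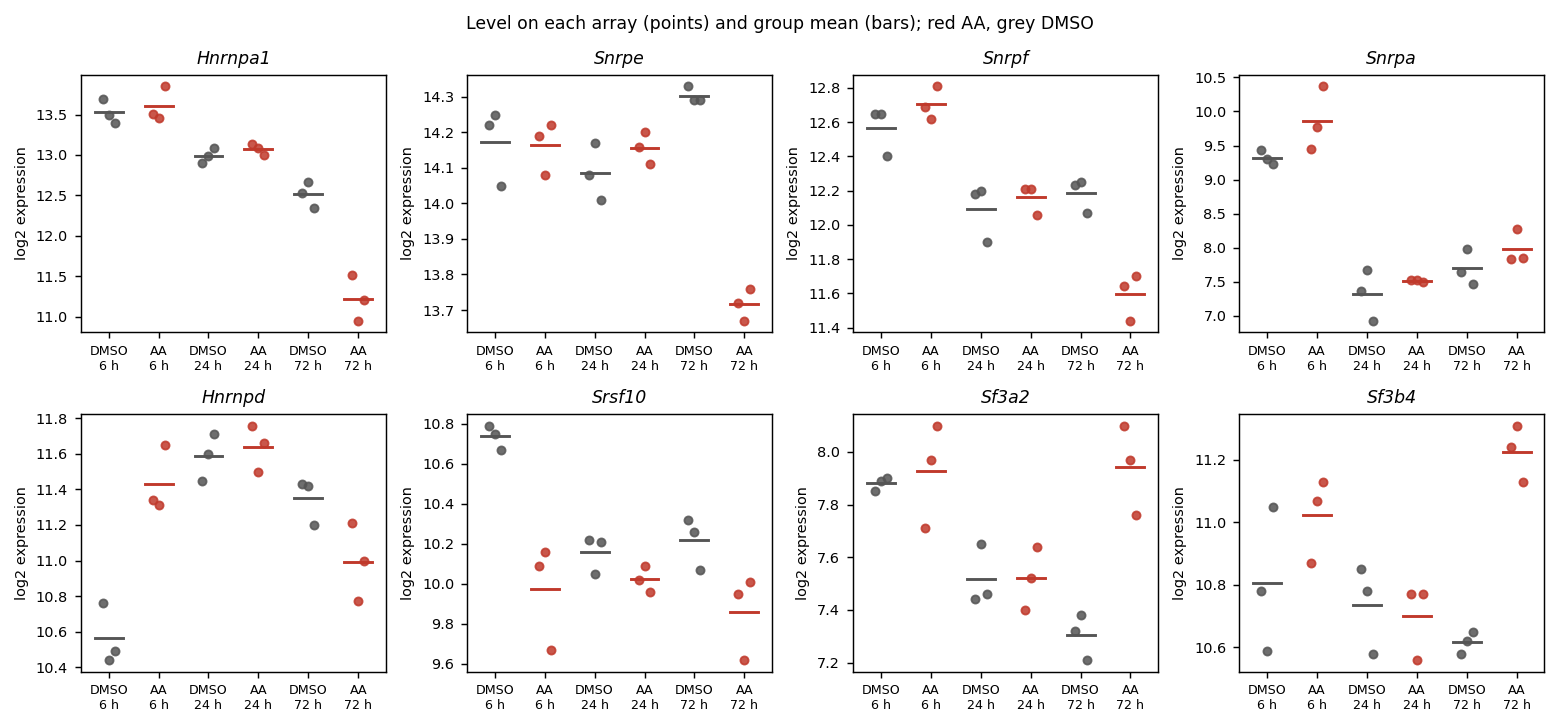
Points are the levels (log2) of 8 members on each of the 18 arrays, by group, grey for DMSO and red for AA, with a bar at the group mean; each panel has its own axis. Hnrnpa1, Snrpe and Snrpf are lowest in AA at 72 h, Snrpa falls between 6 h and 24 h with or without AA, Hnrnpd is lowest in DMSO at 6 h, Srsf10 highest there, and Sf3a2 and Sf3b4 are higher in AA than DMSO at 72 h.

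The promoters of Hnrnpa1 and of 3 Sm ring genes are shown because these members were among the clearest falls at 72 h. The sequences are the 150 bases before the start of each gene on its own strand, 5′ to 3′, from RefSeq on assembly GRCr8. Capitals mark CCGGAAG, the core bound by ETS factors, and CCAAT, the box bound by NF-Y.
Hnrnpa1: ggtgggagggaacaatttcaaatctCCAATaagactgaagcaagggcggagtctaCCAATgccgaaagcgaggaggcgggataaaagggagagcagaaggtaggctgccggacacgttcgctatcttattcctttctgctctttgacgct
Snrpe: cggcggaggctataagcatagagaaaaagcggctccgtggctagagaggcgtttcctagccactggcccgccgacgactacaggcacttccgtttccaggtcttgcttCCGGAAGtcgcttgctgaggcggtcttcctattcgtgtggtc
Snrpf: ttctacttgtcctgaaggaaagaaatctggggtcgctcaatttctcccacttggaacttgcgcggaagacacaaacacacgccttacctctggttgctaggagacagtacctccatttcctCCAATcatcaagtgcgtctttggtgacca
Snrpd2: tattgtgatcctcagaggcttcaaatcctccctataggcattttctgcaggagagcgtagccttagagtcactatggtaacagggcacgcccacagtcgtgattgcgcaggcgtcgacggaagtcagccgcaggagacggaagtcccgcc
They lie at chr7:136253968-136254117 and chr1:87926259-87926408 on the plus strand, and at chr13:47609252-47609401 and chr7:30024163-30024312 on the minus strand. Hnrnpa1 holds 2 CCAAT boxes, Snrpf 1, and Snrpe 1 ETS core, which overlaps a match on the other strand by its CCGG. Snrpd2 holds neither.

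RefSeq promoters were found for 54 of the 61 members, 58 promoters in all because some have more than 1 start. CCGGAAG occurred on either strand in 15 of the 58 (25.9%), in 13.9% of the 8469 promoters of tested genes and in 5.83% of all 33469 promoters of that length. CCAAT occurred in 24 (41.4%), against 26.9% and 23.5%. TATAAA occurred in 4 (6.90%), against 3.19% and 8.0%, and the palindromic NRF1 motif in 2 (3.45%), against 1.63% and 0.618%. A match describes the letters only.

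The branch-site genes were split at 72 h. Sf3a2 had levels of 7.32, 7.38 and 7.21 in DMSO and 8.10, 7.97 and 7.76 in AA (0.64 ± 0.12, adjusted p = 0.000261). Sf3b4 had 10.58, 10.62 and 10.65 in DMSO and 11.24, 11.31 and 11.13 in AA (0.61 ± 0.10, adjusted p = 8.98e-05). Both proteins belong to the U2 particle, and in both genes the groups were well apart. Sf3a1, the largest SF3a subunit, went from 7.28, 7.41 and 7.03 to 7.87, 7.58 and 7.69 (0.48 ± 0.15, adjusted p = 0.0146). Without AA at 72 h replicate 1 or DMSO at 72 h replicate 3 it was 0.40 and 0.37 and missed the threshold. Sf3b6, which touches the branch-point base, fell by 0.31 ± 0.05 (adjusted p = 0.000114). Sf3b1 and Sf3a3 had differences of −0.13 ± 0.07 and −0.20 ± 0.10 and were not called. Sf3b1 was called with arrays centred (−0.20, adjusted p = 0.0314), with quantile normalization (−0.20, adjusted p = 0.0168) and with the mean of its probe sets (−0.48, adjusted p = 0.00244).

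U2af2 rose at 72 h from 9.14, 9.19 and 9.09 to 9.64, 9.71 and 9.36 (0.43 ± 0.11, adjusted p = 0.00361). With the mean of all its probe sets, the difference was −0.10 and not called. U2af1 had a difference of −0.15 ± 0.08 and did not pass, but it was called with arrays centred on the median (−0.22, adjusted p = 0.0207). Among the PRPF genes, Prpf40b, a U1-associated WW-domain protein, rose from 6.13, 6.61 and 6.25 to 6.97, 7.25 and 6.88 (0.70 ± 0.17, adjusted p = 0.00265). Prpf39 rose by 0.38 ± 0.10 and Prpf4, of the U4/U6 particle, by 0.29 ± 0.11, while Prpf6 fell by 0.26. Prpf8 and Prpf19 had differences of 0.05 ± 0.09 and −0.19 ± 0.11, neither called. Prpf19 was called with arrays centred (−0.26, adjusted p = 0.0438) and without AA at 72 h replicate 2 (−0.33, adjusted p = 0.01). Of the SR genes, Srsf4 rose by 0.35 ± 0.08, Srsf10 fell by 0.35 and Srsf1 fell by 0.21. Srsf1 was not called without AA at 72 h replicate 2, or without DMSO at 72 h replicate 1 or 2. Srsf2 had a difference of −0.10 ± 0.07.

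**Figure D3:**
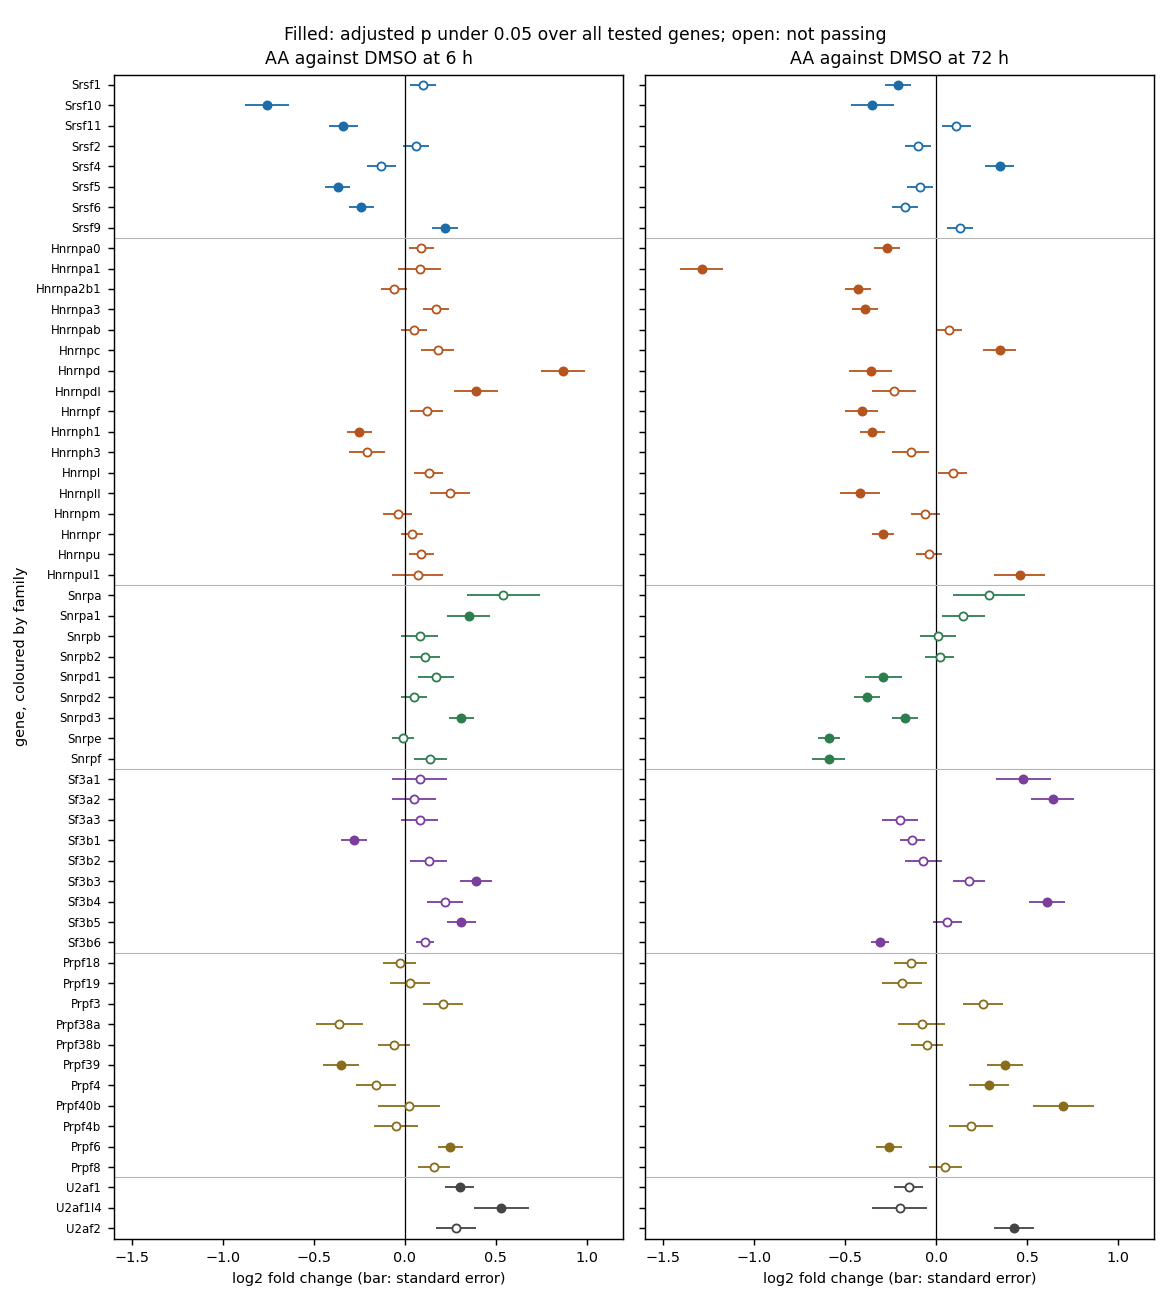
Points are the log2 fold changes of AA against DMSO at 6 h (left) and 72 h (right) for the 57 tested members, coloured by family, with bars of 1 standard error; filled points had an adjusted p under 0.05. The SR genes hold 4 of the 7 filled points left of 0 at 6 h, and the hnRNP and Sm genes hold 14 of the 18 at 72 h, with Hnrnpa1 farthest left at −1.29.

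RNA quality and cell division moved with the 72 h comparison. The 3′ minus 5′ difference of the beta-actin control probe sets was 1.29 to 1.45 in DMSO at 72 h and 1.85 to 2.16 in AA at 72 h, against 0.98 to 1.27 in the other groups. For Gapdh it was −0.28 to −0.13 in DMSO and −0.12 to −0.04 in AA. The cell division genes Mki67, Top2a and Ccnb1 had differences of −0.59, −0.50 and −1.59 at 72 h, each past the test. At 24 h each was called higher in AA, with DMSO and AA means of 9.96 and 10.65, 9.07 and 10.01, and 8.57 and 9.39. The summed level of the proximal tubule markers (2 of 17 at 4 or more) was 8.82 to 9.04 in DMSO and 8.27 to 8.59 in AA, with Aqp1 lower by −2.33 and Gatm higher by 2.05, and that of the endothelial list (1 of 5, Tek) 6.46 to 6.67 and 5.08 to 5.32. Of 2 tested immune markers, Cd68 was higher in AA by 1.90, from a DMSO mean of 3.33, and Cd14 was not called (0.03). Of 9 tested fibroblast and mesenchymal markers, Acta2 was higher (0.74), Col3a1 lower (−0.32) and 7 not called. Of 4 tested epithelial markers, Krt8 (0.55) and Ocln (0.53) were higher and Cdh2 lower (−0.33). The part of each of these in the member differences was not tested.

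The group means of the 6 h and 72 h comparisons share no arrays, but the spread in both tests was estimated from all 18 arrays. Their calls are set side by side with that limit. Of 57 members, 18 were called at neither time. Hnrnpd, Prpf6 and Snrpd3 were higher at 6 h and lower at 72 h, Prpf39 the reverse, and Hnrnph1 and Srsf10 lower at both. No member was higher at both. Of all tested genes, 12.1% were higher and 12.4% lower at 6 h, and 27.4% higher and 19.8% lower at 72 h. Joint shares over all tested genes are not given here, so these joint counts are not read as a trait of the members. Another 13 were called lower and 9 higher at 72 h after missing the threshold at 6 h, which does not show that they did not differ at 6 h.

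The change of the AA effect between times was tested directly. From 6 h to 24 h, Hnrnpd was the 1 member called, and its AA effect fell by 0.82 ± 0.17 (adjusted p = 0.0214). Of all tested genes 1.45% had a higher effect and 0.976% a lower one (2.43% in all). DMSO cells reached 11.45, 11.60 and 11.71 at 24 h and AA cells 11.76, 11.50 and 11.66, so the 2 groups overlapped by then. Without DMSO at 6 h replicate 2, or without AA at 24 h replicate 2, the adjusted p was 0.0599 and 0.0731. Srsf10 narrowly missed, with a change of 0.63 ± 0.17 and adjusted p = 0.0509.

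From 24 h to 72 h the AA effect fell in 13 members and rose in 4, against 13.7% and 18.7% of all tested genes (32.4% in all). With arrays centred on the median these were 17 and 4 members, and 17.5% and 14.9% of all tested genes. The largest falls were those of Hnrnpa1 (−1.38 ± 0.17, adjusted p = 6.34e-06), Snrpe (−0.66 ± 0.08, adjusted p = 6.69e-06) and Snrpf (−0.66 ± 0.13, adjusted p = 0.000803). The effect rose for Prpf40b (0.97 ± 0.25), Sf3b4 (0.65 ± 0.15), Sf3a2 (0.63 ± 0.17) and Prpf39 (0.57 ± 0.14). U2af1 was also called, its effect falling by 0.41 ± 0.11 (adjusted p = 0.00837), although it was called at neither 24 h nor 72 h. No SR gene was called in this comparison.

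Many members also moved with time in DMSO alone. Between 6 h and 24 h in DMSO, 30 of the 57 were lower (30.5% of all tested genes) and 6 higher (28.3%), so that 63.2% were called against 58.8% of all tested genes. The median difference was −0.28 over the members and −0.01 over all tested genes. The fall took in 7 of 9 Sm and snRNP genes, 5 of 8 SR genes and 8 of 17 hnRNP genes. It also took in 2 of 3 U2AF genes, 5 of 11 PRPF genes and 3 of 9 SF3 genes. In 39 members the groups did not overlap, against 64.3% of all tested genes. They were lower at 24 h in 31 (32.9% of all tested genes) and higher in 8 (31.3%). These time comparisons share the DMSO arrays with the treatment comparisons, so the values stand side by side and are not counted as agreement or disagreement.

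Snrpa, the U1 particle protein that binds a U1 stem loop, fell most. Its DMSO levels were 9.43, 9.30 and 9.23 at 6 h and 7.36, 7.68 and 6.93 at 24 h (−2.00 ± 0.20, adjusted p = 9.25e-08), or 0.250-fold. Sf3a1 fell by 1.10 ± 0.15 and Prpf4 by 1.06 ± 0.11. The SR genes Srsf6, Srsf2 and Srsf1 fell by 0.75, 0.70 and 0.58. Prpf40b rose most, from 4.84, 4.57 and 4.92 to 5.98, 5.77 and 5.82 (1.08 ± 0.17, adjusted p = 2.76e-05). It is the dimmest tested member, and its 6 h levels lay near the background. Hnrnpd rose by 1.02 ± 0.12 and Sf3b1 by 0.54 ± 0.07. The division genes Mki67, Top2a and Ccnb1 fell by 1.72, 1.95 and 2.26 over the same interval. Of 9 tested fibroblast and mesenchymal markers 5 fell, among them Col1a1 (−1.86), Postn (−1.79), Fn1 (−1.03) and S100a4 (−1.03). The proximal tubule marker Gatm rose by 1.89. Aqp1 rose by 1.14, between means of 2.08 and 3.21 that both lay near the background, and Ggt1 fell by 1.87, to 3.99. The part of these in the member changes was not tested.

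Between 24 h and 72 h in DMSO, 12 members were higher (17.2% of all tested genes) and 4 lower (17.1%), against 34.3% of all tested genes called in all. Hnrnph3 rose most, from 9.53, 9.54 and 9.69 to 10.46, 10.37 and 10.21 (0.76 ± 0.10, adjusted p = 8.59e-06). Hnrnpc rose by 0.41 ± 0.09. Prpf40b rose by 0.47 ± 0.17, a call lost in 6 of 15 refits (0.34 with adjusted p = 0.206 without DMSO at 72 h replicate 2). Hnrnpdl, Hnrnpa1, Srsf6 and Sf3b1 were the 4 that fell, by 0.56, 0.47, 0.25 and 0.24. Hnrnpa1 thus fell in DMSO at each step, from group means of 13.53 to 12.99 and 12.52. With the mean of all probe sets of a gene, Hnrnpdl had a difference of −0.07 (adjusted p = 0.577) and Srsf6 one of 0.06, neither called. The count of higher members depended on single arrays, being 6, 7 and 6 without DMSO at 72 h replicate 1, 2 and 3. In the same refits 13.1%, 13.0% and 13.9% of all tested genes were higher. In 26 members the groups did not overlap, against 52.6% of all tested genes. They were higher at 72 h in 17 (26.7% of all tested genes) and lower in 9 (25.9%).

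Several members are read by more than 1 probe set, which may sit on different mRNA forms of a gene. The array values do not say which forms these are. The part of the 3′ minus 5′ shift at 72 h and of pseudogene copies in differences between probe sets was not tested. In 20 members at least 2 probe sets passed the filter, 54 probe sets in all. Called probe sets of a gene pointed opposite ways in Hnrnpa2b1 and Srsf6 at 6 h and in no gene at 72 h. They pointed the same way, with 2 or more called, in Hnrnpa3, Hnrnpdl and Srsf10 at 6 h and in Hnrnpa1, Hnrnpa3, Prpf3, Sf3b1 and Srsf1 at 72 h. These values came from a fit of all probe sets that was added after the data had been seen.

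The probe sets of Hnrnpa1 differed most plainly. The brightest one and another fell at 72 h, by 1.29 and by 0.83, and had differences of 0.08 and 0.11 at 6 h. The remaining one had levels of 10.69, 10.70 and 10.70 in DMSO and 9.76, 10.07 and 9.64 in AA at 6 h (−0.87 ± 0.10, adjusted p = 0.000279). At 72 h it had 10.88, 10.99 and 11.07 in DMSO and 10.95, 11.27 and 11.12 in AA, a difference of 0.13 ± 0.10 that was not called. The 72 h fall of Hnrnpa1 therefore holds for 2 of its 3 probe sets. Hnrnpa2b1 had 1 probe set at −0.81 and another at 0.40 at 6 h, both called. Srsf6 had its brightest probe set lower and another higher at 6 h (0.44 ± 0.10, adjusted p = 0.00625), and the latter was also higher at 24 h (0.48 ± 0.10, adjusted p = 0.02). That was the sole probe set of these members called at 24 h.

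In other members a dimmer probe set gave a larger fall than the brightest at 72 h, unlike in Hnrnpa1 and Hnrnpa2b1. Hnrnpa3 had −1.52 ± 0.24 on its dimmest probe set and −0.39 on its brightest. Sf3b1 had −1.07 and −0.23 on its dimmer ones, both called, and −0.13 on the brightest, which was not. Srsf2 had −0.65 on its dimmer probe set (adjusted p = 0.000687). Prpf3 had −1.58 and −0.73 on dim probe sets at means of 4.59 and 5.01, near the background, and 0.26 on the brightest.

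**Figure D4:**
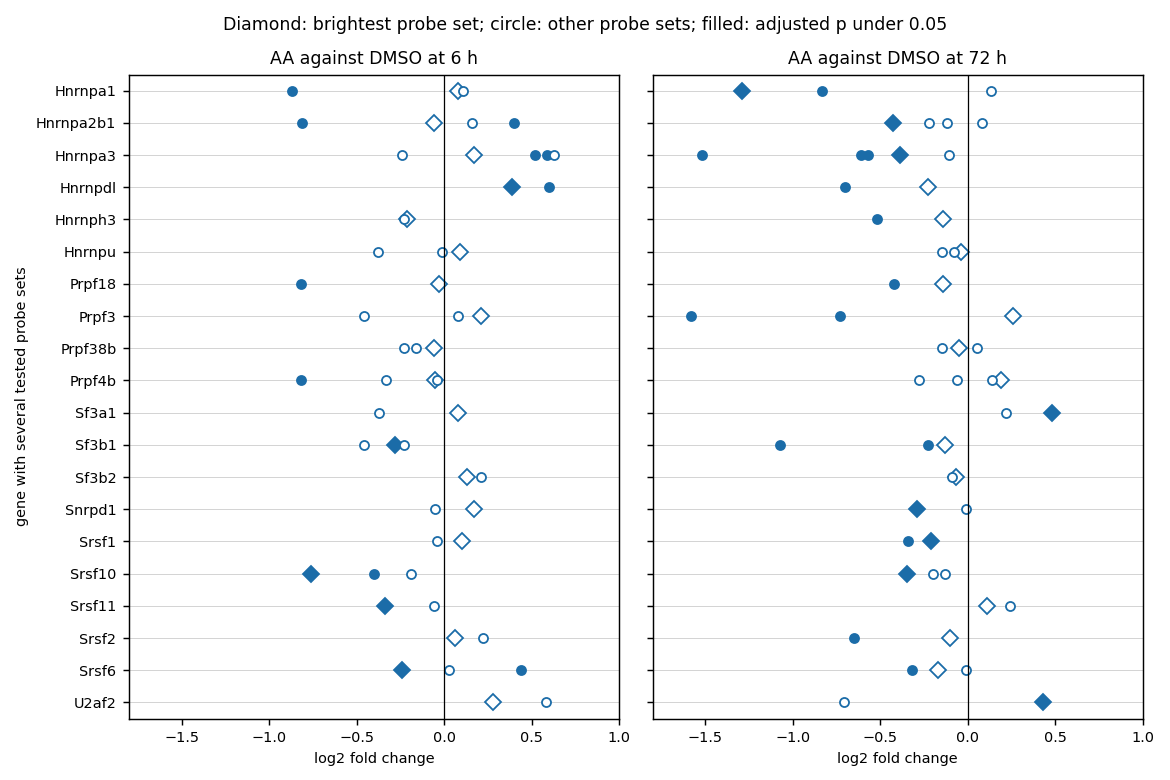
Each symbol is 1 probe set of the 20 members with several tested probe sets, placed by its log2 fold change in AA against DMSO at 6 h (left) or 72 h (right); diamonds are the brightest probe set of a gene, circles the others, and filled symbols had an adjusted p under 0.05. Hnrnpa1 has a circle at −0.87 at 6 h that its diamond does not share, and in Hnrnpa1, Hnrnpa3 and Sf3b1 at least 2 filled symbols lie left of 0 at 72 h.

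Splicing genes with other names were described from lists. Of 8 tested SR protein kinases and regulators, 4 were higher in AA at 72 h and none lower, namely Clk3 (0.70), Clk4 (0.54), Ppp1r8 (0.35) and Dyrk1a (0.32). The CLK kinases phosphorylate SR proteins. Of 51 other spliceosome proteins, 10 were higher and 6 lower at 72 h. Cwc27, a spliceosomal cyclophilin, had the largest difference (−1.42 ± 0.10), followed by Ctnnbl1 (−1.02) and the branch-site protein Sf1 (0.89). At 6 h, 8 were higher and 7 lower, close to the 12.1% and 12.4% of all tested genes, with the helicases Ddx46 at 0.94 and Ddx39a at 0.85 and the cap-binding Ncbp2 at −0.60.

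Of 26 LSm, SMN and snRNP assembly genes, 5 were higher and 3 lower at 72 h. Gemin5, which recognises snRNAs for Sm loading, had a difference of −0.87 ± 0.11, its partner Ddx20 one of 0.64 and Lsm11 one of −0.59. At 6 h, 3 were higher and 3 lower, again near the overall shares, with Lsm10 at 0.67, and Gemin6 (0.67 ± 0.14, adjusted p = 0.0147) was the sole gene of these 5 lists called at 24 h. Of 18 exon junction and export genes, 4 were higher and 1 lower at 72 h, with the export adaptor Alyref at 0.73. The nonsense-mediated decay genes in that list differed in direction, with Smg5 at 1.08, Upf3b at 0.92, Upf2 at 0.06 (not called) and Smg6 at −0.60. Of 41 other regulators, 9 were higher and 9 lower at 72 h, and the largest differences were those of Pspc1 (−1.06), Sfpq (−0.63) and Rbm39 (−0.63). The overall shares at 72 h were those given above, 27.4% higher and 19.8% lower.

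Bulky DNA adducts block transcription, and long genes are hit more often. The members are short, with a median RefSeq span of 13067 bases (range 713 to 64241) against 24265 for 8981 tested genes with a span. None of the 57 exceeded 100 kb, against 13.0% of those genes. Across the 57 members the rank correlation of span with the 72 h difference was 0.18, and across the 8981 genes it was −0.26. These describe genes measured on the same 6 arrays, which are not independent of each other. The part of gene span in the member differences was not tested.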

How the data were processed

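The study measured 18 Affymetrix rat arrays, 6 groups of 3, grouped by the agent and time in the labels. The deposited values are log2 expression levels, 1 for each of 31099 probe sets and array, made by the authors with GCRMA per the submitters' processing notes. That method models non-specific binding by probe sequence, scales arrays to each other and combines the probes of a set; weak probe sets end at a floor near log2 2. No source used here states its version or settings.

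From these values, 20832 probe sets with a single symbol in the platform annotation gave 14218 genes, named through RefSeq (GRCr8), each read from its brightest probe set. The test covered the 9016 genes whose log2 level reached 4 on 3 or more arrays. All 18 arrays were fitted with limma 3.58.1 in R 4.3.3 (6 group means, empirical Bayes with an intensity trend, 12 residual and 7.27 prior degrees of freedom). Adjustment was by Benjamini-Hochberg within each comparison over all tested genes, at 0.05. The steps were tested on simulated data. The number of arrays limits the precision. Arrays were not tested as outliers within their groups of 3.

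The members and the gene lists were chosen with earlier results of these data known. The genes given in full were, per treatment comparison, the 6 largest called differences each way. Per change between times or time comparison in DMSO they were the 3 largest each way. A list of 16 well-known genes was added whatever their test. Of that list, Hnrnpk had no value, and Srsf3, Srsf7 and Snrpn were not tested. Other members were picked for the text after their values were seen. Alternatives were other scalings, filters, array sets, probe set rules, a variance model without trend, the replicate number as a block, and each array left out.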

Additional observations from a re-analysis of the deposited data

Results flagged for a closer look

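The AA effect differed between times, by the test of that difference, in 1 member from 6 h to 24 h and in 17 (13 lower, 4 higher) from 24 h to 72 h. The values of 8 of them, the 3 largest each way and well-known members, are repeated here. From 6 h to 24 h, the effect on Hnrnpd changed by −0.82 on the log2 scale. From 24 h to 72 h, the effect on Hnrnpa1 changed by −1.38, on Snrpe by −0.66, on Snrpf by −0.66 and on U2af1 by −0.41. Over the same interval it changed by 0.97 for Prpf40b, by 0.63 for Sf3a2 and by 0.65 for Sf3b4. The 2 later time points share no arrays with each other. The 3′ minus 5′ difference of beta-actin was also higher in AA at 72 h than in the other groups, and its part in these changes was not tested.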

How the results depend on the processing

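Of 13 named calls at 72 h, 188 of 195 refits kept the call. At 6 h 167 of 195 did, in DMSO 193 of 195 (24 h against 6 h) and 107 of 120 (72 h against 24 h), and for the changes of effect 19 of 21 and 147 of 147. With the mean of all probe sets of a gene, 3 calls were lost with a change of sign, none called the other way: U2af2 at 72 h (−0.10), Hnrnpu in DMSO at 24 h against 6 h (0.07) and Srsf6 in DMSO at 72 h against 24 h (0.06), and 2 members were lower in the last comparison instead of 4. With only the compared arrays, which leaves fewer degrees of freedom, 2 members were higher and 2 lower at 6 h, and 6.46% of all tested genes were called there. Without a filter, 7 members were higher in DMSO at 72 h against 24 h, and 9.65% of all 14218 genes were. With the filter at log2 6, 1 member (Srsf10) had a higher effect at 24 h than at 6 h, where the main count was 0.

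With the replicate block, that count was also 1 (Srsf10), and the block moved no other count by more than 1.5 times. Same-numbered arrays did not deviate together (correlations from −0.16 to 0.16), so the numbers are not taken to pair the samples. Leaving out 1 array at a time, members higher and lower numbered 4 to 12 and 4 to 8 at 6 h, 0 to 1 and 0 at 24 h, 9 to 11 and 13 to 17 at 72 h. For the changes of effect they were 0 to 1 and 0 to 2 (24 h minus 6 h), and 4 to 5 and 11 to 16 (72 h minus 24 h). In DMSO they were 6 to 7 and 27 to 32 (24 h against 6 h), and 6 to 9 and 3 to 4 (72 h against 24 h). The higher count of 1 at 24 h was U2af1 without DMSO replicate 2, and the lows at 6 h came without AA replicate 3. The cause of these shifts was not tested. For the change from 6 h to 24 h, 2 members were lower without AA 6 h replicate 1, 0 without DMSO 6 h replicate 2 or AA 24 h replicate 2, and 1 was higher without AA 6 h replicate 1 or 2. Over all tested genes, 188 calls at 24 h became 112 without a filter and 100 to 202 without single 24 h arrays (202 without DMSO replicate 2). The 219 calls for the change from 6 h to 24 h became 89 with only the compared arrays, 78 without a filter, 138 without the intensity trend, 129 with all probe sets tested, and 22 to 458 without single arrays. The 2211 calls at 6 h became 900 without AA replicate 3 and 1404 without DMSO replicate 2, and 582 with only the compared arrays. With 3 arrays a group, member differences between 2 groups had standard errors of 0.05 to 0.20, which limits what can be resolved.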
